A study of Mus musculus with 3 samples.

Results

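The leptin receptor and gp130 signaling genes were measured in endothelial cells of the adult mouse renal medulla: the receptors Lepr, Il6st (gp130), Il6ra, Lifr and Osmr, the kinases Jak1, Jak2 and Tyk2, the transcription factor Stat3 and its feedback inhibitor Socs3. The 10 genes were given as a list of names, each was represented by the probe set of highest mean level among those annotated with that gene alone, and all 10 were found among 19938 genes represented in the same way. The animals were adult male mice of strain FVB/N carrying the Tg(TIE2GFP)287Sato transgene, which places green fluorescent protein under the Tie2 promoter, and no agent, dose or time course was applied. The medulla was dissected, digested with collagenase and sorted for fluorescence, with 2 kidneys pooled for each of the 3 arrays. The sort enriches endothelial cells but can also take blood cells in which the Tie2 promoter is active. All 3 arrays formed a single group, with no control group, so the data give levels and the spread of levels over arrays, and a lower number of cells of a type cannot be told apart from less RNA per cell.

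Cytokines of this family bind receptors that lack an enzyme of their own. Ligand brings receptor chains together, JAK kinases bound to the chains phosphorylate them and the STAT3 docked there, and STAT3 moves to the nucleus, where Socs3 is among its targets. SOCS3 protein then binds gp130 or the leptin receptor and shuts the kinase off. In vessels the pathway is known for control of adhesion molecules, permeability and angiogenesis, and mice of the db/db strain, used elsewhere in the study as a model of diabetic nephropathy and not analysed here, have lost leptin receptor function.

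All 10 genes lay above both limits used for the series in every array. The limits were 100 raw units (log2 6.64), the filter of the study, and a background limit of log2 7.95 (247 units), the 95th percentile of 1245 probe sets for olfactory, vomeronasal and bitter taste receptors. Over all genes 85.4% reached 100 units in all arrays and 54.8% reached the background limit, so the first limit separates few genes. By limma with Benjamini-Hochberg adjustment over all genes, the 10 genes were called above 100 units, where 84.5% of all genes were called above and 13.7% below, and above the background limit, where 52.4% were called above and 41.5% below. The median level of the 10 genes was log2 9.89 and that of all genes 8.15. Passing the background limit does not by itself show expression in endothelial cells. The proximal tubule markers Slc34a1 (8.40) and Slc5a2 (8.41) and the lymphocyte marker Cd3e (8.52) were called above it too. These were 2 of 6 and 1 of 5 markers of those cells. Socs3 (8.40), Il6ra (8.43) and Tyk2 (8.63) lay at similar distances from it.

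The error behind these calls differed from gene to gene. Osmr, Socs3, Jak2 and Tyk2 had the same deposited value in all 3 arrays, Il6ra had 2 different values, and the other 5 genes had 3. Of all genes 46.3% had no spread at all, with 61.4% below log2 8, 38.6% from 8 to 10 and 17.4% from 10 upwards. Deposited values also recurred between probe sets, with 24300, 24076 and 24215 different values over 35557 probe sets in replicates 1, 2 and 3, and the exact value of Socs3 stood in all arrays of 4 other probe sets. For a gene with no spread limma gave a standard error of 1.97e-05 log2 units, so adjusted p-values of the 10 genes against the background limit ran from 8.8e-11 to 0.00164. A limma fit with the prior variance taken from the 4781 genes with 3 different values gave such genes a standard error of 0.0591, called 49.7% of all genes above the background limit and 38.0% below, and kept all 10 genes above. The standard errors and adjusted p-values given for the 10 genes from here on come from that fit.

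**Figure D1:**
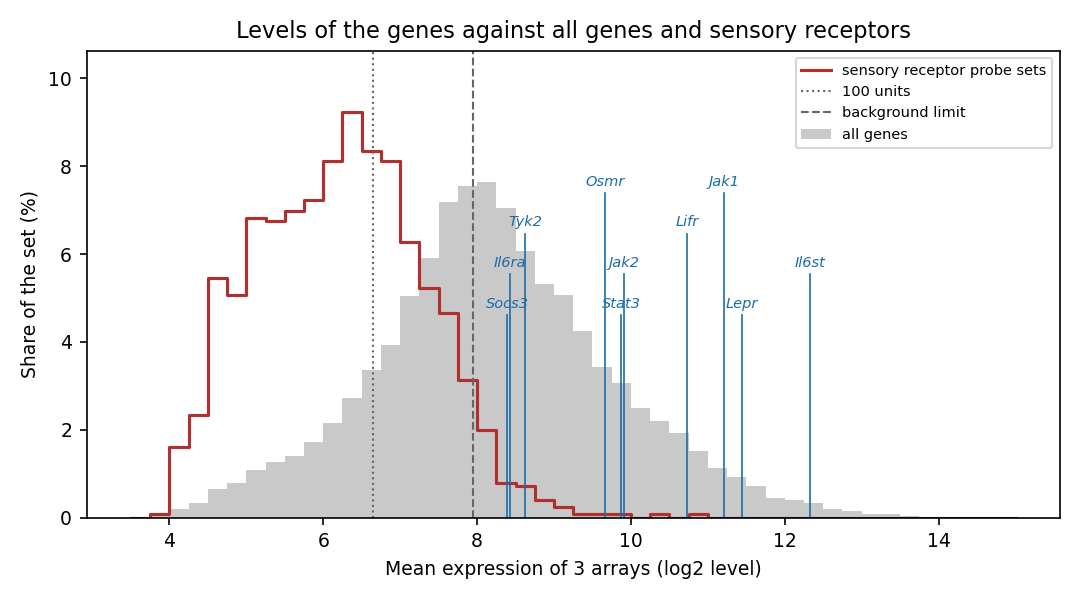
Share of genes (y axis, percent of each set) by mean expression over 3 arrays (x axis, log2 level) for all 19938 genes (grey bars) and 1245 sensory receptor probe sets (red line), with the 10 genes marked by blue lines whose heights carry no value. Il6st at 12.33, Lepr at 11.44 and Jak1 at 11.21 lay beyond every sensory receptor probe set, whereas Socs3, Il6ra and Tyk2 lay where 25, 23 and 14 of them remained.

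Lepr, the receptor of the fat hormone leptin, had a high level. It was log2 11.39, 11.41 and 11.51 in replicates 1, 2 and 3 (mean 11.44 ± 0.06, SD, n = 3, or 2778 units). Replicate 3 was the highest, and the whole range was 0.12. The mean lay 3.49 ± 0.06 (SE) log2 units above the background limit, which is 11.3-fold (limma, adjusted p = 2.81e-05). None of the 1245 sensory receptor probe sets reached it. Among genes with 3 different values, 16.7% had a smaller SD than Lepr, and those within 0.5 log2 units of its level had a median SD of 0.19. Over all genes, most of them with tied values, the median SD was 0.008, below that of Lepr. The study named Lepr among its medullary genes on these same samples, so its level is not independent evidence of expression there. The single probe set of Lepr reports the gene as a whole, and the long signaling form of the receptor cannot be told apart from the short forms.

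Leprot and Leprotl1, which encode membrane proteins that limit leptin receptor traffic to the cell surface, were measured in the same arrays. Leprot lies next to Lepr on chromosome 4, with no protein-coding gene between them in GRCm38.p6, and Jak1 lies on the same chromosome with 3 protein-coding genes between it and Lepr. Leprot was at log2 11.66, 11.51 and 11.45 (11.54 ± 0.11, SD, n = 3) and Leprotl1 at 10.34, 10.38 and 10.28 (10.34 ± 0.05). Leprot was highest in replicate 1, where Lepr was lowest.

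Il6st encodes gp130, the chain that interleukin and leukemia inhibitory factor receptors of this family share for signaling. Its level was log2 12.43, 12.20 and 12.35 in replicates 1, 2 and 3 (12.33 ± 0.12, SD, n = 3, or 5145 units). The mean exceeded the background limit by 4.38 ± 0.08 (SE) log2 units (limma, adjusted p = 2.81e-05), and no sensory receptor probe set reached it. Replicate 2 was the lowest array, by 0.23 from the highest.

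The partner chains of gp130 spanned a wide range of distances from background. Lifr, the receptor of leukemia inhibitory factor, was at log2 10.97, 10.49 and 10.72 in replicates 1, 2 and 3 (10.73 ± 0.24, SD, n = 3). Osmr, the receptor chain for oncostatin M and, with Il31ra, for interleukin 31, was at 9.66 in all arrays. Il6ra, the chain that binds interleukin 6 itself, was at 8.43, 8.43 and 8.45 (8.43 ± 0.01).

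Lifr had the widest spread of the 10 genes, with a range of 0.48, and 68.0% of genes with 3 different values had a smaller SD. Its mean was 2.78 ± 0.12 (SE) log2 units above the background limit (limma, adjusted p = 8.19e-05), and 1 sensory receptor probe set was as high. In the limma fit with the usual prior, leaving out replicate 3 gave Lifr an adjusted p of 0.0564 against that limit, the only call among the 10 genes lost when an array was left out. Osmr lay 1.71 ± 0.06 (SE) log2 units above the limit (limma, adjusted p = 5.3e-05). Il6ra lay 0.49 ± 0.06 (SE) above it, or 1.4-fold (limma, adjusted p = 0.00201), and 23 sensory receptor probe sets (1.85%) were at least as high. At the 99th percentile of these probe sets, log2 8.72, Il6ra was called below in the fit with the usual prior, the only fit made at that limit. Osmr and Lifr are neighbors on chromosome 15 with no protein-coding gene between them in GRCm38.p6.

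**Figure D2:**
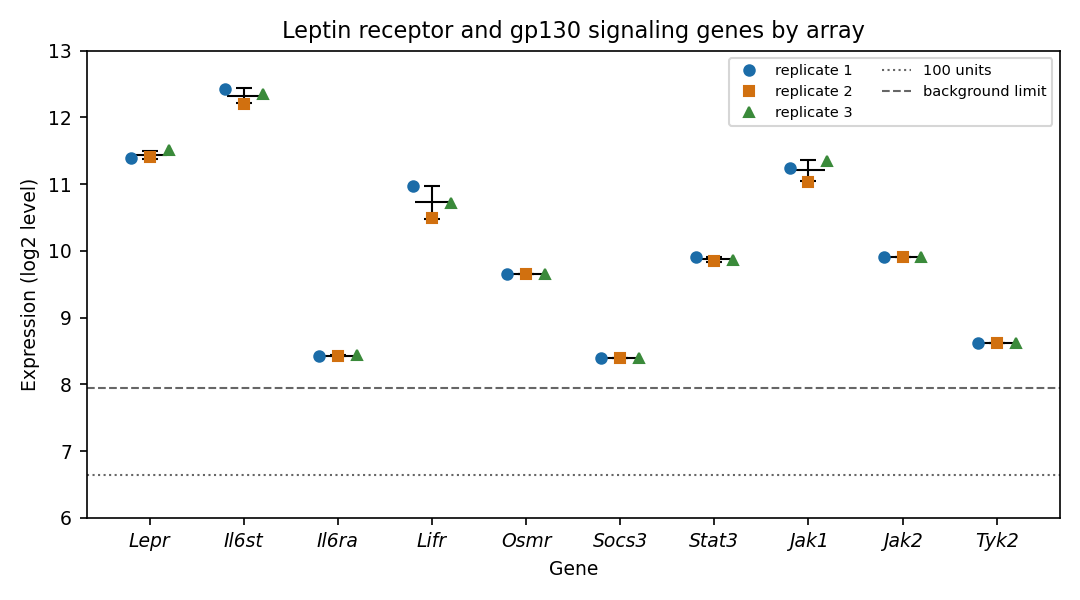
Expression (y axis, log2 level) of the 10 genes (x axis), with a point for each of 3 arrays, a bar at the mean and whiskers of 1 SD, and lines at 100 units (6.64) and at the background limit (7.95). Every point lies above both lines, Lifr is spread from 10.49 to 10.97, and the points of Osmr, Socs3, Jak2 and Tyk2 each fall on a single value.

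The kinases bound to these receptors were all above the background limit. Jak1, the kinase on which gp130 depends most, was at log2 11.25, 11.04 and 11.34 in replicates 1, 2 and 3 (11.21 ± 0.15, SD, n = 3), or 3.26 ± 0.09 (SE) above the limit (limma, adjusted p = 3.37e-05). Jak2, the kinase of the leptin receptor, was at 9.91 in all arrays, or 1.96 ± 0.06 (SE) above it (limma, adjusted p = 4.08e-05). Tyk2, which also serves interferon and interleukin receptors, was at 8.63 in all arrays, or 0.68 ± 0.06 (SE) above it (limma, adjusted p = 0.000663). The Tyk2 level was matched by 14 sensory receptor probe sets, the Jak2 level by 2 and the Jak1 level by none. In the limma fit with the usual prior, where a gene with no spread had a standard error of 1.97e-05, Tyk2 was called below the 99th percentile of those probe sets. Its distance from that percentile was only -0.095 log2 units, and the other prior was not tried there.

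Stat3, the transcription factor that carries the signal to the nucleus, was at log2 9.91, 9.84 and 9.86 (9.87 ± 0.04, SD, n = 3, or 937 units). Its mean exceeded the background limit by 1.93 ± 0.06 (SE) log2 units (limma, adjusted p = 4.46e-05). Of genes with 3 different values 7.36% had a smaller SD, but the median SD over all genes, ties included, was 0.008, below that of Stat3. The activity of STAT3 depends on phosphorylation of the protein, which an array does not measure.

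Socs3, the feedback inhibitor that STAT3 itself induces, lay close to background. It was at log2 8.40 in all arrays (337 units), 0.45 ± 0.06 (SE) above the background limit (limma, adjusted p = 0.00257), and 25 sensory receptor probe sets (2.01%) were at least as high. Socs3 was the only one of the 10 genes with several probe sets. The other probe set, annotated with a single transcript record, was at 7.26 in all arrays, under the background limit and above 100 units. The mean over the pair, 7.83, was also under the limit, so the call for Socs3 rested on the choice of probe set.

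The promoter of Socs3 is shown because STAT3 acts on Socs3 through its promoter. The sequence is the 250 bases before the annotated start in RefSeq for GRCm38.p6, chr11:117969367-117969616 on the minus strand, 5′ to 3′, with the letters TTCNNNGAA, the palindromic motif of STAT dimers, in capitals:
Socs3: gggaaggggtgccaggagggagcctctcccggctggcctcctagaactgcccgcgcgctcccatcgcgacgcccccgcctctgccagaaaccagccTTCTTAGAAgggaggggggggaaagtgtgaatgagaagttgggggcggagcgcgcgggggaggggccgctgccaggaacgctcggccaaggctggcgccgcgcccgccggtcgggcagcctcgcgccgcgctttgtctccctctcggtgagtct
The motif begins 154 bases before the start. Of the 10 genes, all of which had a promoter in the table, only Socs3 held it, and 8.13% of 27025 genes with a promoter of the same length did, so a share of 1 in 10 is near that of all genes. Among the known STAT3 targets listed further on, Icam1 alone of 18 with a promoter held it. A match is a run of letters and not a shown binding site.

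The ligands of the pathway lay on both sides of the background limit. Of 13 ligand genes 11 had a probe set of their own, and the others were not analysed here. Lep, which encodes leptin, was at log2 6.78 in all arrays, and Il6, which encodes interleukin 6, was at 4.60 in all arrays, under even 100 units. Il11 (7.07), Lif (6.95 to 6.98), Osm (7.28 to 7.36) and Ebi3 (7.22 to 7.25) lay between the limits. Il27, whose product pairs with that of Ebi3 to form a gp130 cytokine, was at 9.13, 9.13 and 9.21 (9.16 ± 0.04, SD, n = 3), and Clcf1, which encodes a further cytokine of the family, was at 8.77 in all arrays.

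By limma 5 of the 11 ligands were called above the background limit (45.5%, near the 52.4% of all genes) and 6 below it, and the median was log2 7.31 against 8.15 over all genes. The 5 were Il27, Clcf1, Ctf2 (8.13), Il31 (7.98) and Ctf1 (7.95). With the prior from genes with 3 different values Ctf1 and Il31 could not be told from the limit, which left 3 of 11 above, where that fit called 49.7% of all genes above.

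Other receptors of the same family also lay on both sides of the background limit. Cntfr (log2 8.25), which binds ciliary neurotrophic factor with gp130 and LIFR, Il27ra (8.14), the partner of gp130 for interleukin 27, and Il12rb1 (8.20) had single values and were called above the limit by limma. Csf3r, the receptor of granulocyte colony-stimulating factor, was at 7.61, 7.43 and 7.40 and was called below it. Il31ra (6.62 to 6.68), the partner of Osmr, Il12rb2 (6.62 to 6.69) and Il23r (6.56) were also called below, with means at -1.29, -1.28 and -1.38 log2 units from the limit. Of 7 measured, 3 were above (42.9%, against 52.4% of all genes) and 4 below, with a median of log2 7.48, and Il11ra1 was not analysed here.

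Receptors that share the same kinases but bind other cytokines were mostly above it. The interferon receptor chains Ifnar1 (log2 11.37, 10.88 and 10.88 in replicates 1, 2 and 3), Ifnar2 (12.44, 12.42 and 12.18), Ifngr1 (10.77, 10.49 and 10.31) and Ifngr2 (9.61, 9.92 and 9.74) were called above by limma, and so was Il10rb (11.46, 11.42 and 11.06). Il10ra, the chain that binds interleukin 10, was called below, at 7.18 in all arrays. Of 10 measured, 9 were above the limit, where 52.4% of all genes were, and 1 was below, and the median was log2 9.67. Replicate 3 was the lowest array in Ifnar2, Ifngr1 and Il10rb and replicate 1 in Ifngr2. The other genes of the list were not analysed here.

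Of the STAT factors measured besides Stat3, Stat2, Stat5a, Stat5b and Stat6 were called above the background limit and Stat4 below it, that is 4 of 5 above against 52.4% of all genes. Stat2 was at log2 10.04, 10.21 and 10.04 (10.10 ± 0.10, SD, n = 3), Stat6 at 9.57, Stat5a at 8.75 and Stat5b at 8.55. Stat4, known mainly from lymphocytes, was at 5.57.

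Inhibitors of the pathway were above the background limit in 13 of 15 cases (86.7%, against 52.4% of all genes), with a median of log2 8.69. Among the SOCS family, whose members bind receptors or kinases, Socs4 (9.77) and Socs5 (10.18) had single values, and Socs1 was at 8.48, 8.48 and 8.54. Socs6 was at 9.63, 9.13 and 9.71 and Socs7 at 8.68, 8.36 and 8.99, so that replicate 2 was the lowest in each. Socs2, an inhibitor of growth hormone signaling, was at 8.40, 9.28 and 8.40, and its other probe set at 8.46 in all arrays, so the high value of replicate 2 stood in only 1 of its probe sets. Limma did not call Socs2 apart from the background limit (adjusted p = 0.107), but called it above with the other prior (adjusted p = 0.0334). Cish, a STAT5 target, was at 7.93 in all arrays and was called below the limit, but not with the other prior, under which Ptpn6, at 8.09 to 8.13, also lost its call.

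Downstream adaptors and the shedding enzymes were mostly above the limit too. Ptpn11, which encodes the phosphatase SHP2 that docks on gp130 at the SOCS3 site, was at log2 10.01, 9.94 and 10.18 (10.04 ± 0.12, SD, n = 3), Grb2 at 9.39 ± 0.08, Sos1 at 9.24 ± 0.02 and Shc1 at 9.45 ± 0.27. Gab1, a scaffold protein, was at 10.79, 10.20 and 10.15, with replicate 1 the highest, and Gab2 was at 9.24, 9.29 and 8.86. Irs1 (7.21) and Src (7.87) were called below the limit and the remaining 12 of 14 above (85.7%, against 52.4% of all genes), with Src no longer called with the other prior. Adam10 (11.22, 11.02 and 11.11) and Adam17 (10.30, 10.18 and 10.30), the proteases that cut the interleukin 6 receptor from the cell surface, were called above. So were Furin (8.98 ± 0.02) and Gga3 (10.20 ± 0.04), and with Leprot and Leprotl1 all 6 genes for receptor traffic and shedding were above, again against 52.4% of all genes, with a median of 10.30.

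Genes known as STAT3 targets in several cell types had a share above the background limit near that of all genes. Of 22 measured, limma called 13 above the limit (59.1%, against 52.4% of all genes), 7 below, and 2, Lrg1 and Serpina3n, neither way. Bcl3 was at log2 8.38, 8.72 and 8.61, Junb at 8.24 and Cebpd at 8.33 in all arrays, and Mcl1, a survival factor, at 10.51, 10.86 and 10.65. Fgg, a chain of fibrinogen, was at 5.73, Saa3 at 6.73 and Timp1 at 7.07 in all arrays, and Lcn2 was at 7.22, 7.60 and 7.25, all called below. Lrg1 was at 7.82, 8.25 and 8.42 and Serpina3n at 7.53, 7.88 and 7.68. Myc (7.49, 6.88 and 6.88), Birc5 (7.21) and Cebpb (7.89) were called below as well, Cebpb no longer with the other prior. Icam1, an adhesion molecule named here for its promoter after its value was seen, was at 9.36 in all arrays. With no untreated and stimulated groups these are levels, and no induction can be read from them.

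**Figure D3:**
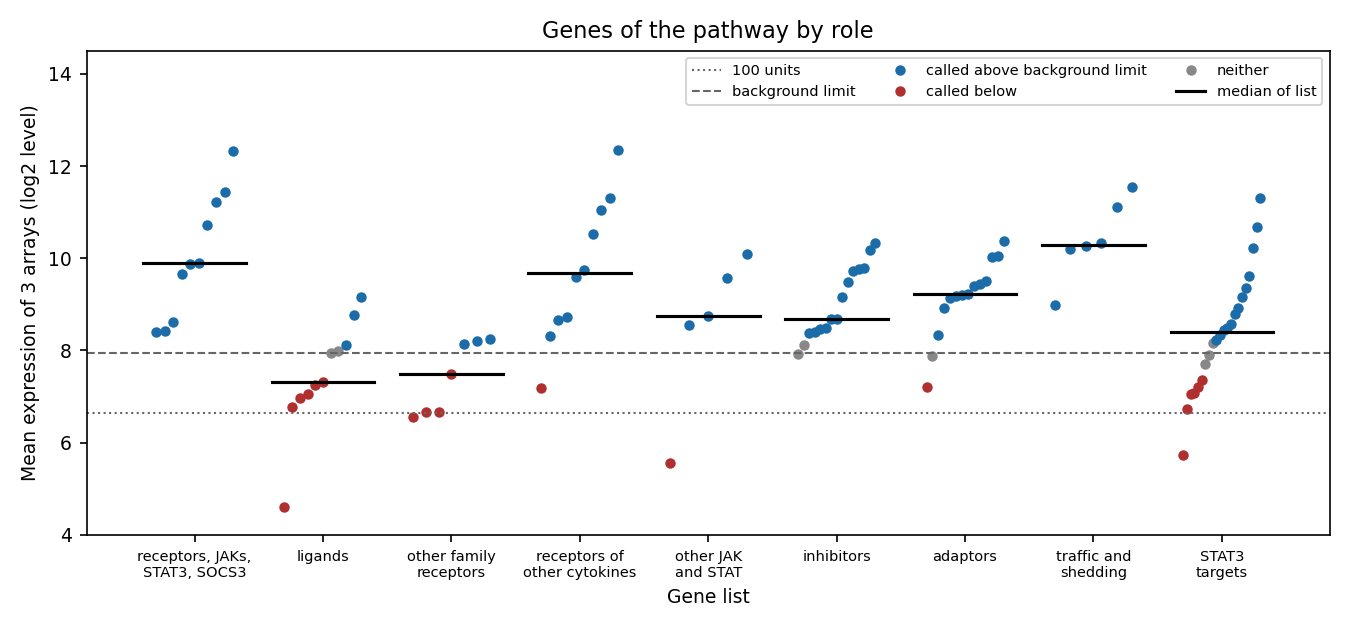
Mean expression over 3 arrays (y axis, log2 level) of each measured gene in 9 lists by role (x axis), colored by the limma call against the background limit with the prior from genes with 3 different values; black bars are list medians and lines mark both limits. Called above the limit are 10 of 10 receptors, kinases, STAT3 and SOCS3, 3 of 11 ligands and 3 of 7 other family receptors. Of all genes 49.7% are called above. The ligands Ctf1 and Il31 lie just over the line without a call. Levels of different probe sets are not ranked.

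Replicate 2 was the lowest array in 4 of the 5 members with 3 different values, Il6st, Lifr, Jak1 and Stat3, whereas Lepr was lowest in replicate 1. Among all genes with 3 different values, 31.4% were lowest in replicate 2. The shift of replicate 2 against the mean of the other arrays had a median of -0.02 over the 10 genes and of 0 over all genes. Ties weigh on the second value, which is therefore a weak reference. Of all genes 46.3% had the same value in all arrays, as did 4 of the 10. Replicate 1 was the highest in Il6st, Lifr and Stat3, and replicate 3 in Lepr and Jak1. With 3 arrays of 1 group no test of these orders was made.

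Levels of some markers of other cells also differed between arrays. Among 5 markers of the thick ascending limb, a tubule segment that lies beside the medullary vessels, replicate 1 was the highest in 3, with Umod at log2 11.61, 10.40 and 9.49, Slc12a1 at 9.68, 8.07 and 7.81, and Egf at 8.76, 8.16 and 8.16. Kcnj1 was at 8.84 in all arrays, and Cldn16 was lowest in replicate 1, at 7.07, 7.34 and 7.34. The summed level of the 5 markers was 4969, 2524 and 1852 units in replicates 1, 2 and 3. Limma called 2 of the 5 above the background limit. Endothelial markers such as Pecam1 (12.53, 12.38 and 12.40) and Cdh5 (12.92, 12.65 and 12.57) summed to 54321, 47566 and 48845 units over 10 genes, all called above, and vasa recta markers to 11278, 14419 and 12861 units over 4 genes, all above. The sum over the 10 genes of the pathway was 16470, 14735 and 16214 units. Of collecting duct markers 3 of 6 were above (1794 to 2062 units), of proximal tubule 2 of 6 (1061 in each array), of myeloid 1 of 6 (1011 to 1067), of lymphocyte 1 of 5 (851), of pericyte 0 of 6 (1246 to 1280) and of fibroblast 2 of 6 (1205 to 1206). Those of the collecting duct were Aqp2 (9.67, 9.67 and 9.27), Aqp3 (8.54 to 8.56) and Hsd11b2 (8.25 in all arrays). Those of the proximal tubule were Slc34a1 (8.40) and Slc5a2 (8.41), each with no spread. Blood and stromal markers ranged from under 100 units to above the background limit. Of myeloid markers Adgre1 was at 6.18, Csf1r at 7.54, C1qa at 7.91 and Cd68 at 7.99, the last no longer called above with the other prior. Of lymphocyte markers Cd79a was at 5.96, Nkg7 at 7.42 and Cd3e, called above, at 8.52. Of fibroblast markers Lum was at 5.92 and Dcn at 7.26, and Col1a1 (8.81) and Col3a1 (8.17) were called above. Il6st, Lifr and Stat3 were highest in replicate 1, like Umod and like the summed endothelial markers. They were lowest in replicate 2, as that endothelial sum was. Of the single endothelial markers Pecam1, Tek, Tie1 and Flt1 were lowest there too. Cdh5, Kdr, Eng and Esam were lowest in replicate 3, as Umod was, and Erg in replicate 1. Emcn was lowest in replicates 1 and 3. The part of tubule RNA in the levels of Il6st, Lifr and Stat3 was not tested.

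**Figure D4:**
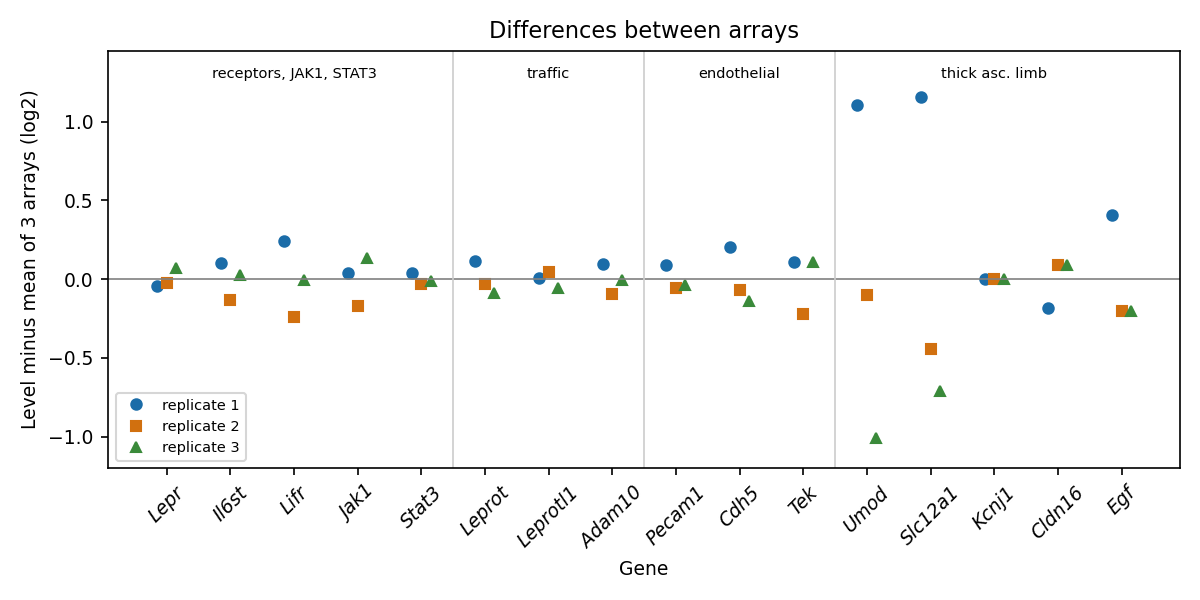
Level of each array minus the mean of the 3 arrays (y axis, log2 units) for 5 genes of the pathway with 3 different values, 3 genes for receptor traffic, 3 endothelial markers and 5 thick ascending limb markers (x axis). Replicate 2 is the lowest array for Il6st, Lifr, Jak1 and Stat3, with differences far smaller than those of Umod, which runs from 9.49 in replicate 3 to 11.61 in replicate 1.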

How the data were processed

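RNA of sorted medullary endothelial cells (3 pools of 2 kidneys) went through 1 round of NuGEN WT-Ovation Pico amplification and was hybridized to 1-color Affymetrix mouse whole-transcript gene arrays. The authors deposited log2 levels per probe set, made with Affymetrix Expression Console per the labels, and the study states RMA (background correction, normalization between arrays, median polish) in GeneSpring. The log2 scale was read from the range of values (3.55 to 14.4). RMA equalizes the arrays, so differences in total RNA are removed, and median polish can return the same value for several arrays. Probe-level data and scan dates were not used here. The array medians differed by at most 0.03.

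Of 35557 probe sets, 21789 named 1 gene, 1621 several and 12147 were unnamed in the platform annotation. Symbols were updated through Entrez identifiers to RefSeq GRCm38.p6 (99.6% matched). For each gene the distance of its log2 level from a limit was tested against 0 by limma (lmFit with a constant term, then eBayes), two-sided, with Benjamini-Hochberg adjustment over 19938 genes and a threshold of 0.05. It was tested on simulated data without tied values. The members and lists were chosen with earlier results of these data known. Text names all 10 genes, every measured ligand, family receptor, STAT and traffic gene, the first 6 of other lists with those on the other side of the limit from most, and leading markers, and others where stated. Levels of different genes were not ranked, since probes differ in affinity. Nothing says whether the pools came from separate animals beyond the study's word that samples were independent. The p-values therefore rest on the spread between these samples and on the prior variance, not on a known spread between animals. Osmr, Socs3, Jak2 and Tyk2 had no spread, so their standard error of 0.0591 came from the prior alone. That of Il6ra, 0.0593 with an SD of 0.01, came almost wholly from it. The number of arrays limits the precision. Tools were limma 3.58.1 in R 4.3.3, and matplotlib 3.10.9, scipy 1.17.1, pandas 2.3.3 and numpy 2.4.6 in Python 3.11.15.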

Additional observations from a re-analysis of the deposited data

How the results depend on the processing

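All 10 genes stayed above the limit when it was set to 50 or 200 units instead of 100. Of 19938 genes 18805 were above 50 units and 12425 above 200, against 16852 above 100. Against 100 units all 10 genes also stayed above with the mean or the lowest of several probe sets, centring of arrays, and a filter on low genes. The same held with both other priors, the use of all probe sets, and without each replicate. These settings put 15482 to 16911 of all genes above. Against the background limit the count among the 10 genes was 10 in the same settings except these. With the mean over probe sets or the lowest probe set it was 9, with Socs3 at -0.12 and -0.68 log2 units from the limit. At the 99th percentile of sensory receptors, fitted with the usual prior only, it was 7, with Il6ra at -0.29, Socs3 at -0.33 and Tyk2 at -0.095. There 5990 of all genes were above, against 10455, since the limit itself is higher. Leaving out 1 array gave 9 or 10 of the 10 genes and 8503 to 8742 of all genes. No paired analysis was possible because there is 1 group. A level under the background limit does not show that a gene is silent.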
